A study of Mus musculus with 9 samples.

Results

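The Hist1h genes are the replication-dependent histone genes of the large mouse histone cluster on chromosome 13. Members were taken by symbol alone: every gene of the GENCODE vM21 annotation (GRCm38) whose symbol starts with Hist1h, of which 54 were among the 32287 genes of the deposited matrix and 56 were in the annotation. They comprise 6 genes of linker histone H1, 13 of H2A, 15 of H2B, 9 of H3 and 11 of H4, and 53 of them had at least 1 unique molecular identifier (UMI, a counted mRNA molecule) in the cells kept here.

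Single cells were profiled by droplet 3′ RNA sequencing of polyadenylated RNA from male TiCY mice, in which tamoxifen switches on an eYFP reporter through Tlx-CreERT2 in neural stem cells (NSCs) and their progeny. Wildtype mice (WT) were set against TiCY-IFNAGRKO mice (KO), which lack the receptors for type I and type II interferon. WT young mice were 16 weeks old with tamoxifen at 10 weeks, WT old mice 80 weeks old with tamoxifen at 71 weeks, KO young mice 16 weeks old with tamoxifen at 7 weeks, and KO old mice 92 to 105 weeks old with tamoxifen at 85 and 98 weeks. The labelled chase was 6 weeks in WT young and 9 weeks in the other groups. The labelled age of KO old mice does not equal their age at tamoxifen plus the chase, so it is uncertain. Cells negative for CD45, Ter119 and O4 were sorted from the ventricular-subventricular zone (vSVZ; eYFP-positive and GLAST-positive cells) and from striatum, rostral migratory stream and olfactory bulb pooled as the rest of the brain (eYFP-positive, and eYFP-negative with low PSA-NCAM). The 2 mice of each group were run in 1 reaction, so group and reaction cannot be told apart, and antibody hashtags marked mouse and tissue.

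Replication-dependent histones are made while DNA is copied, when new chromatin has to be packed. Their genes lack introns as a rule, and their mature mRNAs end in a conserved stem-loop, bound by the protein Slbp, in place of a poly(A) tail. The Mcm proteins form the helicase that is loaded at replication origins before S phase and unwinds DNA during it, and in the adult vSVZ quiescent NSCs become activated NSCs, transit amplifying progenitors (TAPs) and then neuroblasts.

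The stem-loop is shown because it defines this class of mRNA and because 3′ chemistry reads the end of the transcript. A perfect 6-base stem with a 4-base loop was found in the annotated 3′ untranslated region of 34 members, in 5 distinct forms. The sites below come from GENCODE vM21 transcripts, 5′ to 3′ on the sense strand, with the stem in capitals and the loop and flanks in lower case.
Hist1h2ap: aaaaaaaGGCTCTtttcAGAGCCatc
Hist1h2ae: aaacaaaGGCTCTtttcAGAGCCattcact
Hist1h1e: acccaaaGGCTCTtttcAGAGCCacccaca
Hist1h3c: aaaaaaaGGCTCTtttaAGAGCCacctaag
Hist1h4d: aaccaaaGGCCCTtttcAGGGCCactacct
Hist1h4j: ccctaaaGGTCCTtttcAGGACCaccacat
H1, H2A, H2B and H3 members shared one stem and H4 members had others, as these examples show. The annotated transcript ran more than 50 bases past the stem-loop in 18 members, which held 145145 UMIs, and ended within 50 bases of it in 16 members with 73061 UMIs. In 11 members, Hist1h1b among them, the annotation stopped at the stop codon (44822 UMIs), and in the remaining 9 no perfect stem-loop was found (47454 UMIs). Hist1h2bc belongs to the last set, with a 3′ untranslated region of 742 bases in a transcript of 2 exons. Hist1h2af and Hist1h2ah are in that set as well, with annotated 3′ untranslated regions of 1 and 2 bases, too short to hold a stem-loop. UMIs of different members are therefore given as molecules captured in these libraries, and not as levels of 1 gene against another. Whether the part of each mRNA that carries a poly(A) tail differs between cell classes was not tested. Differences between classes and quotients over Mcm genes are likewise those of captured molecules.

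Promoters are shown because most members had most of their UMIs in the same cell class. The 250 bases before the start site are given 5′ to 3′ on each gene's strand from RefSeq (GRCm38.p6), with matches to CCAAT, to TATAAA and to AAACACA on either strand in capitals. Hist1h1b lies on the minus strand (chr13:21780626-21780875), Hist1h2ae on the minus strand (chr13:23571221-23571470) and Hist1h4d on the plus strand (chr13:23581318-23581567).
Hist1h1b: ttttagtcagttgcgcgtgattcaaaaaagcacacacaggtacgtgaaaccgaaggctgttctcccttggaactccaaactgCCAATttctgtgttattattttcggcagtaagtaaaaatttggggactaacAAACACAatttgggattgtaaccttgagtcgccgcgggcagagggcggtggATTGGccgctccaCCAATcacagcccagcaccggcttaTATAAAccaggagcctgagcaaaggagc
Hist1h2ae: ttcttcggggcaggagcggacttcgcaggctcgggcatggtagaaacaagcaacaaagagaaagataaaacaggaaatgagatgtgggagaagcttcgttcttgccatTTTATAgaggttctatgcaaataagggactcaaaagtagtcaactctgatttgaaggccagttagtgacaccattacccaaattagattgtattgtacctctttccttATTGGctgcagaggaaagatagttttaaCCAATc
Hist1h4d: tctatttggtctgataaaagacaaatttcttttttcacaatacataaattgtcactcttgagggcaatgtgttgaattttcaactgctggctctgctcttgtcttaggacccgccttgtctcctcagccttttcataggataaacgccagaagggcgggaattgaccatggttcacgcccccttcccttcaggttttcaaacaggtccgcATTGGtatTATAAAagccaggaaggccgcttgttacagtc
Of the 54 members, 50 had a RefSeq promoter. CCAAT, searched on both strands in the same 250 bases before the start site, occurred in 42 of these (84.0%) against 33.8% of 32851 promoters in the table. All 39 promoters of H1, H2A, H2B and H3 members held it, against 3 of 11 for H4. TATAAA occurred in 26 of 50 (52.0%) against 12.4% of all, and AAACACA in 9 of 50 (18.0%) against 6.25%, with 5 of the 6 H1 promoters among these 9. These matches are descriptions of the letters and not of bound sites.

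The members form 2 blocks on chromosome 13. The first holds 23 genes (chr13:21715763-22043676) with 32.8% of the Hist1h UMIs, and the second 31 genes (chr13:23531050-23934851) with 67.2%. In 12 places neighbours start within 1000 bases of each other on opposite strands, 11 of them an H2A beside an H2B. Hist1h2ae starts 176 bases from Hist1h2bg, and the Hist1h2ae promoter printed above overlaps that of its neighbour (chr13:23571150-23571399, plus strand). Where such promoters overlap, the same match can count for both genes, so the promoter counts above are not all of separate stretches.

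The 4 expression libraries gave 18390 cells after the cell filters, of which 18055 with 128838995 UMIs were kept once predicted doublets were removed, with library medians of 5026 to 7393 UMIs per cell, and 30 barcodes occurred in more than 1 library. Ifnar1, the targeted subunit of the type I interferon receptor, was at 21.2 and 28.6 CPM (UMIs per 1000000 UMIs) in WT young and WT old against 8.08 and 6.56 in KO young and KO old, and Ifngr1 of the type II receptor at 46.9 and 85.4 against 2.88 and 4.40. Cells were clustered without any histone gene and without Mcm2 to Mcm7 (83 genes in all), and clusters were named from fixed markers. The TAP-like class rests on markers that include the division genes Mki67, Top2a, Cdk1, Cenpf and Ube2c, so a link of that class with cell division is part of its definition. Every level below is given in CPM of the UMIs of the same cells, and 4 values in a row stand for young WT, old WT, young KO and old KO libraries. Intervals are exact 95% Poisson or Clopper-Pearson intervals that cover counting error only.

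Hist1h UMIs were concentrated in few cells. The 54 genes had 310482 UMIs in the 18055 cells kept, the set to which every UMI total of a gene refers. The 655 cells in which the genes made up at least 1% of the UMIs, 3.63% of the cells, held 62.9% of the Hist1h UMIs. Of these cells 563 were TAP-like, 78 activated NSC-like and 14 neuroblast-like, and none fell into another class. The highest cell, a TAP-like cell, had 5.67% of its UMIs in Hist1h genes.

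By class, TAP-like cells stood above all others. Summed Hist1h genes were at 15133 CPM in WT young (535 cells), 20283 in WT old (31 cells), 14911 in KO young (323 cells) and 16729 in KO old (70 cells). Over the 4 libraries the TAP-like level was 15331 (15261 to 15401). The next highest value of any class and library was 4178, so the TAP-like class and the rest did not overlap.

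Activated NSC-like cells came next in this clustering and differed most between libraries. Their Hist1h sum was 4178 in WT young (424 cells), 932 in WT old (63 cells), 2359 in KO young (282 cells) and 1822 in KO old (126 cells), with 2970 (2938 to 3003) over all. This rank depended on which cells were called activated. The class was at 697 CPM at Leiden resolution 2 (a finer clustering), 729 with predicted doublets kept and 852 with histone and Mcm genes kept in the clustering, each below the quiescent NSC-like (861, 854 and 866) and the neuroblast-like (1029, 988 and 983) level of the same clustering. The WT old value lay within the range of the microglia-like libraries (697 to 970). The median activated cell had 0.0797% of its UMIs in Hist1h genes, close to 0.0798% for the median quiescent NSC-like cell, while the 90% quantile was 0.784% against 0.149%.

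The remaining classes lay close together. Neuroblast-like cells had 1181, 945, 947 and 995 CPM, and quiescent NSC-like cells 898, 882, 820 and 896. Microglia-like cells were at 796 over all libraries, neuron-like cells at 701, olfactory ensheathing-like cells at 675, endothelial-like cells at 597, cells with the markers of oligodendrocyte progenitors (OPC-like) at 532 and oligodendrocyte-like cells at 494. Neuroblast-like and quiescent NSC-like cells overlapped with microglia-like cells, whose libraries ranged from 697 to 970.

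**Figure D1:**
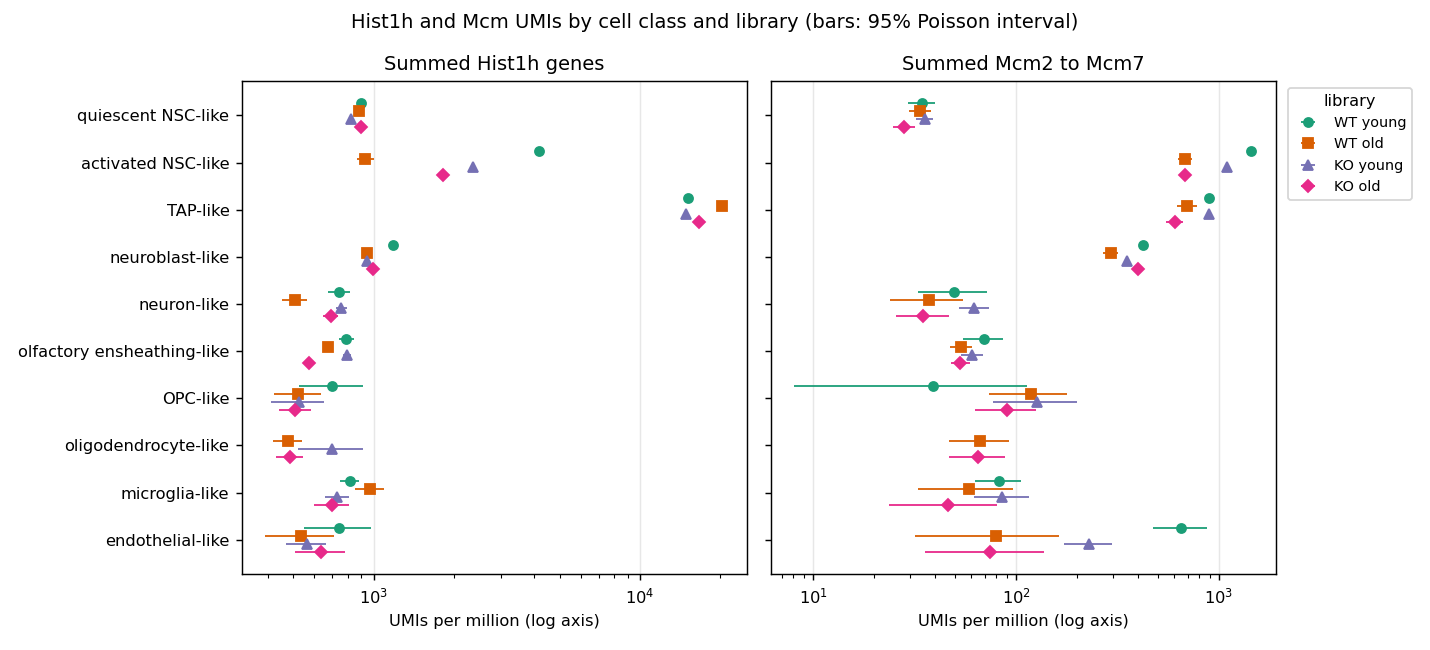
Summed Hist1h genes (left) and summed Mcm2 to Mcm7 (right) in CPM on log axes, for 10 named cell classes, 1 symbol per library with exact 95% Poisson intervals as bars; a class without UMIs in a library has no symbol. TAP-like cells lie at 14911 to 20283 for Hist1h, above every other class, while for Mcm2 to Mcm7 activated NSC-like cells (677 to 1430) and TAP-like cells (604 to 893) overlap.

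The share of cells with a Hist1h UMI separated TAP-like cells from the rest only after cells were thinned to a common 1000 UMIs. Thinned shares were 87.2% for TAP-like, 58.3% for activated NSC-like, 57.8% for neuroblast-like and 54.4% for quiescent NSC-like cells. Without thinning the shares were 99.2%, 98.2%, 93.4% and 96.9%, at median depths of 12537, 11916, 5115 and 7088 UMIs per cell. Microglia-like cells, which served as the background class, gave 54.4% thinned (48.9 to 59.9%) and 90.9% unthinned at a median of 5249 UMIs. The quiescent share was equal to this background and the activated and neuroblast-like shares lay inside its interval, so at this depth they were not told apart from it.

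Hist1h UMIs were set against the sum of Mcm2 to Mcm7, which ranked the classes differently. The Mcm sum was highest in activated NSC-like cells (1151 CPM), followed by TAP-like (868), neuroblast-like (380), microglia-like (74.3) and quiescent NSC-like cells (32.9). The Hist1h sum was 17.7 times the Mcm sum in TAP-like, 2.58 times in activated NSC-like, 2.74 times in neuroblast-like and 26.3 times in quiescent NSC-like cells. The high quotient in quiescent NSC-like cells came with few Mcm UMIs and with Hist1h UMIs of which 60.5% belonged to Hist1h2bc. The study names a workflow that counts spliced and unspliced reads, and the sources used here do not say which of these the deposited matrix holds. Mcm genes have introns and Hist1h genes as a rule do not, so the size of every quotient depends on that choice.

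In TAP-like cells the quotient of Hist1h over Mcm UMIs was 16.9 in WT young (16.5 to 17.4) and 16.7 in KO young (16.2 to 17.3), against 29.1 in WT old (25.9 to 32.7) and 27.7 in KO old (25.2 to 30.5). Both old libraries lay above both young ones beyond counting error, with lower Mcm sums (698 and 604 against 893 and 892). With 1 library per group this difference has no test, and the old values rest on 31 and 70 cells. Mice of 1 group differed as well. In the tagged TAP-like cells of the WT young mice the Hist1h sums were 15733 and 8045 CPM, beside Mcm sums of 811 and 676. At Leiden resolution 2 the quotients were 9.71, 12.5, 9.92 and 10.9, with the old libraries still above the young ones. When predicted doublets were kept the order was lost, with 7.76, 9.17, 7.47 and 7.33.

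The 4 clusters with the highest Mcm sums showed how unevenly the 2 sums were spread. Cluster 10 (TAP-like, 722 cells, led by Hist1h1b and Top2a) had 19010 Hist1h and 971 Mcm CPM, and cluster 19 (TAP-like, 237 cells, led by the mitotic genes Cenpf, Cenpa and Cdca8) had 2590 and 512. Cluster 13, neuroblast-like with 551 cells and led by Hells, Rrm2 and Insm1, had the highest Mcm sum of all clusters, 1482, with a Hist1h sum of 1358. The cells of cluster 13 count as neuroblast-like in every level, quotient and comparison of that class in this clustering. Cluster 9, which makes up the activated NSC-like class, had 2970 and 1151. The quotient was thus 19.6 in cluster 10, 5.06 in cluster 19, 2.58 in cluster 9 and 0.916 in cluster 13, and cluster 13 was below cluster 9 in each of the 4 libraries (1.18, 0.785, 0.661 and 0.679 against 2.92, 1.37, 2.14 and 2.69).

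Cell by cell, the Hist1h level in these 4 clusters was lowest where no Mcm UMI was left, in each library. Among their 2405 cells, thinned to 1000 UMIs, the Hist1h level was 5521 CPM in the 1188 cells with no Mcm UMI left, 8950 in the 600 cells with 1, and 8488 in the 617 cells with 2 or more. In WT young and KO old the cells with 1 Mcm UMI had the highest level and in WT old and KO young those with 2 or more. With so few Mcm UMIs left per cell, these bins cannot show how closely the 2 sums follow each other.

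**Figure D2:**
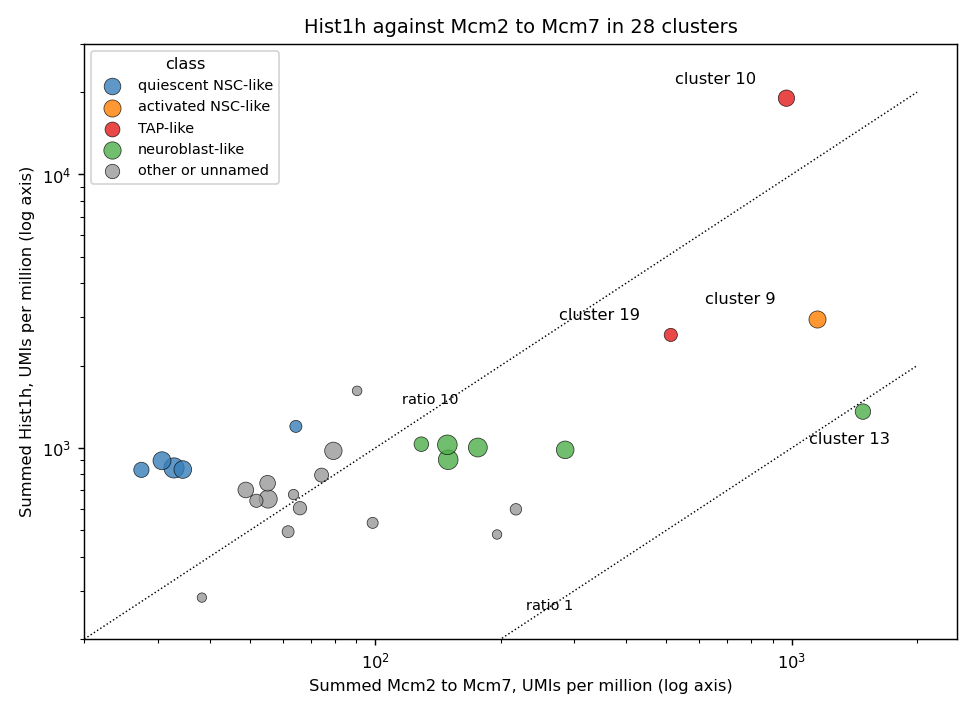
Summed Hist1h against summed Mcm2 to Mcm7, both in CPM on log axes, 1 point per cluster with its area growing with the number of cells; dotted lines mark Hist1h sums 1 and 10 times the Mcm sum. Cluster 10 stands alone at 19010 Hist1h CPM, while cluster 13 with the highest Mcm sum (1482) lies just below the lower line at a quotient of 0.916.

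The 5 families took different shares in the different classes. In TAP-like cells H2A members held 44.1% of the Hist1h UMIs, H1 26.2%, H4 14.2%, H3 9.68% and H2B 5.82%. In neuroblast-like cells the order was H1 31.3%, H4 26.6%, H2A 22.8%, H2B 13.2% and H3 6.07%. In quiescent NSC-like cells H2B members held 63.0%, H4 17.4%, H1 14.6%, H2A 4.36% and H3 0.738%. As many as 19 members were needed to reach 90% of the UMIs in TAP-like and in activated NSC-like cells, 17 in neuroblast-like cells, 7 in quiescent NSC-like cells and 5 in oligodendrocyte-like cells.

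Under 50 UMIs were counted for Hist1h2ao (39), Hist1h1t (18), Hist1h4b (13), Hist1h2aa (6), Hist1h2bq (2) and Hist1h2ba (0), of which Hist1h1t, Hist1h2aa and Hist1h2ba are known from the testis. Of the 48 members with at least 50 UMIs, 38 had more than 50% of their UMIs in TAP-like cells (median 68.1%, range 4.19 to 88.7%), although these cells were 959 of 18055. The median was 74.3% for H2A, 71.0% for H2B, 68.0% for H3, 63.6% for H1 and 50.7% for H4 members. Hist1h2af (88.7%), Hist1h3c (86.7%) and Hist1h3b (86.5%) were the most restricted. At the other end stood Hist1h2bc (4.19%), Hist1h4i (28.5%), Hist1h1c (29.7%), Hist1h2ac (32.5%), Hist1h4j (34.3%) and Hist1h2be (38.2%).

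Among the linker histones, which sit on the DNA between nucleosomes, Hist1h1b was the most captured, with 33830 UMIs. In TAP-like cells it was at 2315, 1929, 1956 and 2056 CPM, in activated NSC-like cells at 837, 75.2, 332 and 240, in neuroblast-like cells at 83.3, 38.0, 34.5 and 31.7, and in quiescent NSC-like cells at 4.49, 2.13, 5.96 and 2.79. The 4 classes did not overlap except that the WT old activated value lay below the WT young neuroblast-like value. Over all libraries Hist1h1a was at 368 in TAP-like, 49.4 in activated, 9.97 in neuroblast-like and 0.725 in quiescent NSC-like cells. Hist1h1d was at 181, 36.2, 10.1 and 5.43 in these 4 classes.

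Hist1h1e and Hist1h1c were less restricted. Hist1h1e was at 1202, 961, 899 and 992 CPM in TAP-like cells, and at 205, 146, 173 and 183 in neuroblast-like cells, where it was the member with most UMIs (17.7%). Its last 300 bases are shared with same-strand annotations that include Hist1h2be, so its UMIs and those of Hist1h2be are uncertain. Hist1h1c was at 242, 402, 211 and 281 in TAP-like cells, at 47.0, 40.7, 43.5 and 33.3 in activated NSC-like cells and at 62.1, 61.1, 51.0 and 65.5 in quiescent NSC-like cells. Each quiescent library thus lay above each activated library for Hist1h1c.

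Among H2A members, which pair with H2B in the nucleosome core, Hist1h2ap and Hist1h2ae led with 44409 and 36719 UMIs. Hist1h2ap was at 2008, 5626, 3681 and 3817 CPM in TAP-like cells, at 606, 72.8, 541 and 361 in activated NSC-like cells, and at 8.78, 17.1, 17.2 and 13 in quiescent NSC-like cells. WT young was lowest among the TAP-like libraries and highest among the activated ones. Hist1h2ap has no 31-base stretch of its own in its last 300 bases and shares 93.4% of its 31-base words with Hist1h2ao (39 UMIs), so counts of this pair are uncertain. Hist1h2ae was at 2582, 3136, 2228 and 2342 in TAP-like cells, at 499, 18.5, 196 and 88.3 in activated NSC-like cells and at most 6.04 in quiescent libraries.

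The other H2A members were captured less and mostly in TAP-like cells. Hist1h2ab was at 627 CPM in TAP-like cells over all libraries against 68.4 in activated, 12.7 in neuroblast-like and 1.62 in quiescent NSC-like cells. In the same order of classes Hist1h2af was at 296, 34.4, 1.71 and 0.203, Hist1h2ag at 115, 22.2, 5.85 and 0.145 and Hist1h2ai at 133, 22.4, 13.5 and 0.522. Hist1h2ac was the exception, with 72.2, 26.8, 11.7 and 15.6 in these classes, so that quiescent NSC-like cells were above neuroblast-like cells in 4 of 4 libraries.

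Among H2B members Hist1h2bc stood apart from every other Hist1h gene. It was at 529, 547, 469 and 575 CPM in quiescent NSC-like cells, at 139, 208, 186 and 152 in activated NSC-like cells, at 106, 181, 136 and 161 in TAP-like cells and at 98.9, 85.5, 94.3 and 96.0 in neuroblast-like cells. All quiescent libraries were above all libraries of the other 3 classes. Over all libraries it was at 329 in oligodendrocyte-like, 293 in olfactory ensheathing-like, 243 in neuron-like, 197 in endothelial-like, 182 in microglia-like and 129 in OPC-like cells. It held 51.2% of its UMIs in quiescent NSC-like cells and 4.19% in TAP-like cells.

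Within the quiescent NSC-like class Hist1h2bc was captured at similar levels in each of its 5 clusters, between 422 and 639 CPM in every cluster and library. Inside cluster 10, where the Hist1h sum was highest, it was at 77.8, and in cluster 19, led by mitotic genes, at 279. The last 300 bases of Hist1h2bc are unique for 91.0% of their 31-base words. The other H2B members among the 25 with most UMIs were highest in TAP-like cells. Hist1h2bn was at 144, 17.8, 3.41 and 0.870 in TAP-like, activated, neuroblast-like and quiescent NSC-like cells, and Hist1h2bm at 117, 25.8, 6.51 and 0.348. Hist1h2be was at 86.4, 21.6, 12.6 and 13.3 in these classes.

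H3 members, the carriers of many regulatory histone marks, summed to 1483 CPM in TAP-like, 218 in activated NSC-like, 63.3 in neuroblast-like and 6.38 in quiescent NSC-like cells. Hist1h3h, with 138 UMIs, had 44.9% of them in neuroblast-like and 42.8% in TAP-like cells. Hist1h3c was at 692, 737, 438 and 729 CPM in TAP-like cells, at 147, 12.3, 34.0 and 47.3 in activated NSC-like cells and at 7.82, 0.48, 1.64 and 2.0 in neuroblast-like cells. The 3 classes did not overlap. Hist1h3b had 1 UMI in all quiescent NSC-like cells (0.0290 CPM) against 158 CPM in TAP-like cells. Hist1h3e was at 315, 42.2, 28.3 and 1.48 and Hist1h3f at 134, 17.8, 6.69 and 0.725 in TAP-like, activated, neuroblast-like and quiescent NSC-like cells, with the caution that Hist1h3e shares 75.2% of its 31-base words with Hist1h3f. Hist1h3i was at 176, 34.3, 12.2 and 0.899 in these classes.

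H4 members were spread more widely. Hist1h4d was at 1428, 1801, 1369 and 1621 CPM in TAP-like cells, at 362, 141, 238 and 223 in activated NSC-like cells, at 163, 170, 157 and 206 in neuroblast-like cells and at 63.9, 59.9, 72.0 and 47.7 in quiescent NSC-like cells. It was the leading member in microglia-like and OPC-like cells (23.5% and 25.7% of their Hist1h UMIs). Hist1h4h was at 320 CPM in TAP-like and 37.7 in quiescent NSC-like cells, Hist1h4c at 209 and 9.92, and Hist1h4i at 86.9 and 30.3. For Hist1h4i TAP-like and quiescent NSC-like cells each held 28.5% of the UMIs.

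**Figure D3:**
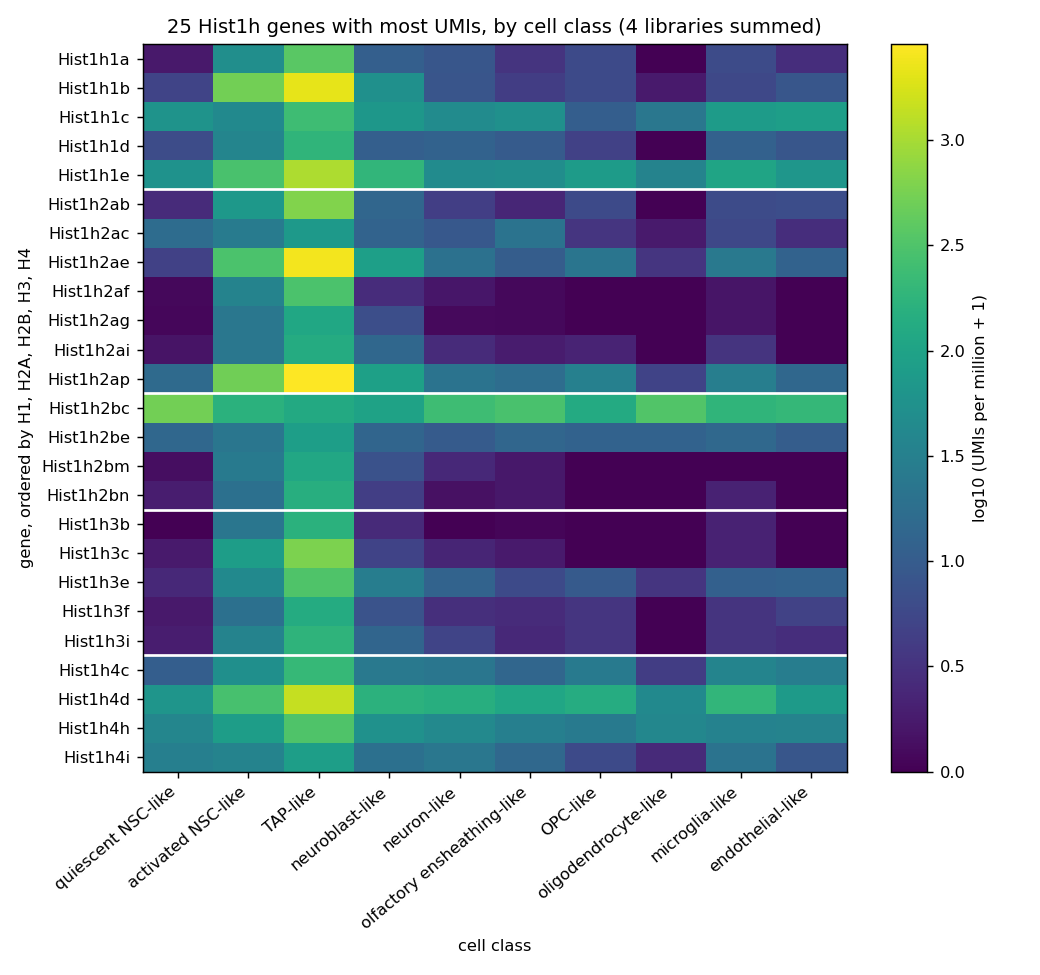
The 25 Hist1h genes with most UMIs, ordered by family, against 10 cell classes, with the colour giving log10 of CPM plus 1 over the 4 libraries; white lines separate H1, H2A, H2B, H3 and H4. The TAP-like column is the brightest for 24 genes, and the Hist1h2bc row is brightest in quiescent NSC-like cells (523) and less bright in TAP-like cells (123).

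Pairs of neighbours that start back to back were captured alike in some cases and not in others. In TAP-like cells Hist1h2ap was at 2860 CPM and Hist1h2br, which starts 236 bases away, at 47.9, a quotient of 59.7. Hist1h2ae was at 2457 and Hist1h2bg at 59.7, a quotient of 41.2. Hist1h2ag and Hist1h2bj were near equal at 115 and 109, as were Hist1h2ah and Hist1h2bk at 17.1 and 17.6. Hist1h2ac and Hist1h2bc, 251 bases apart, had 72.2 and 123 in TAP-like cells and 15.6 and 523 in quiescent NSC-like cells. These quotients compare captured molecules and are not levels of 1 gene against another. Hist1h2br shares 89.4% of its 31-base words with Hist1h2bq, and Hist1h2ap has none of its own in its last 300 bases.

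Activated NSC-like cells were compared with quiescent NSC-like cells within the 4 libraries (edgeR quasi-likelihood test with the library as a block, Benjamini-Hochberg adjusted p under 0.05 over 12459 genes). Tagged quiescent NSC-like cells were not all from the vSVZ: 1383 of 1995 (69.3%) carried a vSVZ hashtag and 612 came from the rest of the brain, against 178 and 21 for activated NSC-like cells, so tissue differed along with class and its part in the result was not tested. The study took astrocytes from outside the vSVZ out of its lineage cells, and no such step was taken here. The comparison is therefore not one of vSVZ stem cells alone. Cluster 8 (972 cells, led by Prss56, Crym and Thbs4) scored highest for quiescent NSC markers but stayed unnamed and is left out here. Its Hist1h sum was 976 CPM. Of the 54 members 43 passed the low-count filter, and 35 were higher and 2 were lower in activated NSC-like cells. Over all genes 68.5% were called, 34% higher and 34.4% lower. The count of higher members is partly set by that filter, since 8 of the 43 had fewer than 10 UMIs in quiescent cells and passed through their activated libraries. Without the filter, 40 of the 53 members with a UMI in any of these cells were higher, 2 lower and 11 not called, and their median log2 fold change was 2.92 against -0.13 over all genes.

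Members with few UMIs in quiescent cells changed most. Hist1h3b, with its 1 quiescent UMI, had a fitted log2 fold change of 7.85, which depends on the prior count and is not a bound. Hist1h1b rose by 6.04 ± 0.29 (SE, 4 libraries; adjusted p = 4.29e-08 in edgeR), Hist1h3c by 5.71 ± 0.32 (1.04e-07), Hist1h2ae by 5.34 ± 0.30 (1.05e-07) and Hist1h2ap by 4.34 ± 0.48 (1.42e-05). Hist1h1e and Hist1h4d rose less, by 1.77 ± 0.19 and 1.69 ± 0.18 (edgeR adjusted p = 9.95e-06 and 1.22e-05). Each of these was higher in 4 of 4 libraries except Hist1h3b, which had 0 UMIs in both classes of WT old. In cluster 8, which is left out of the quiescent class, Hist1h4d was at 140, 120, 139 and 122 CPM. These values lie above the quiescent NSC-like libraries (47.6 to 72.0) and below the lowest activated library (141).

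Hist1h2bc and Hist1h1c were the 2 members that went the other way. Hist1h2bc was at 469 to 575 CPM in quiescent and 139 to 208 in activated NSC-like libraries, a log2 fold change of -1.90 ± 0.13 (edgeR adjusted p = 3.79e-07). Hist1h1c was at 51.0 to 65.5 and 33.3 to 47.0, with -0.76 ± 0.13 (edgeR adjusted p = 5.00e-04). In cluster 8, left out here, Hist1h2bc was at 404 to 562 CPM and Hist1h1c at 40.3 to 58.3. The 6 members that did not pass were Hist1h2be, Hist1h2bh, Hist1h2br, Hist1h4i, Hist1h4j and Hist1h4k, with log2 fold changes from -0.60 to 0.98.

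Which cells count as activated moved this comparison more than any other choice. At Leiden resolution 2 the activated NSC-like class had 450 cells and a Hist1h sum of 697 CPM, and 9 of 23 members were higher and 6 lower. Of all 11759 genes tested there, 3522 were higher and 3609 lower. The median log2 fold change was 0.60 for members and 0.0062 for all genes. With predicted doublets kept the class had 486 cells and 729 CPM, with 14 of 22 members higher and 5 lower. Of all 11584 genes, 3559 were higher and 3639 lower, and the medians were 0.87 for members and 0.012 for all genes. With histone and Mcm genes kept in the clustering the sum was 852. Hist1h2bc and Hist1h1c were called lower in 10 of 10 alternatives, and Hist1h1b, Hist1h1e, Hist1h2ac, Hist1h2ae, Hist1h2ap, Hist1h3e, Hist1h3i, Hist1h4c and Hist1h4d were called higher in 10 of 10. The direction held in these, but the size often did not. Over all settings the log2 fold change ran from 1.42 to 6.39 for Hist1h1b, 2.28 to 5.76 for Hist1h2ae and 0.60 to 4.96 for Hist1h2ap. For Hist1h2bc it stayed between -1.99 and -1.80, and for Hist1h2ac between 0.47 and 0.66.

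TAP-like cells were compared with neuroblast-like cells, the next step of the lineage, in the same way (edgeR quasi-likelihood test, 11002 genes). The neuroblast-like class includes the cluster with the highest Mcm sum, which was not set apart. Of the 54 members 47 passed the low-count filter, and each was higher in TAP-like cells. Over all genes 52.2% were called and 26.3% were higher. Each of the 47 had at least 10 UMIs in neuroblast-like cells. Without the filter 49 of 52 members were higher and 3 not called, with a median log2 fold change of 3.79 against -0.14 over all genes. The smallest changes were those of Hist1h2bc (0.58 ± 0.11), Hist1h3h (1.60 ± 0.37) and Hist1h1c (2.01 ± 0.11), and the largest were 7.51 ± 0.18 for Hist1h2af and 7.37 ± 0.20 for Hist1h3c, with edgeR adjusted p of 2.83e-04, 0.00119, 2.14e-11, 5.40e-17 and 3.82e-16. For 45 of the 47 the call was made in 10 of 10 alternatives.

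**Figure D4:**
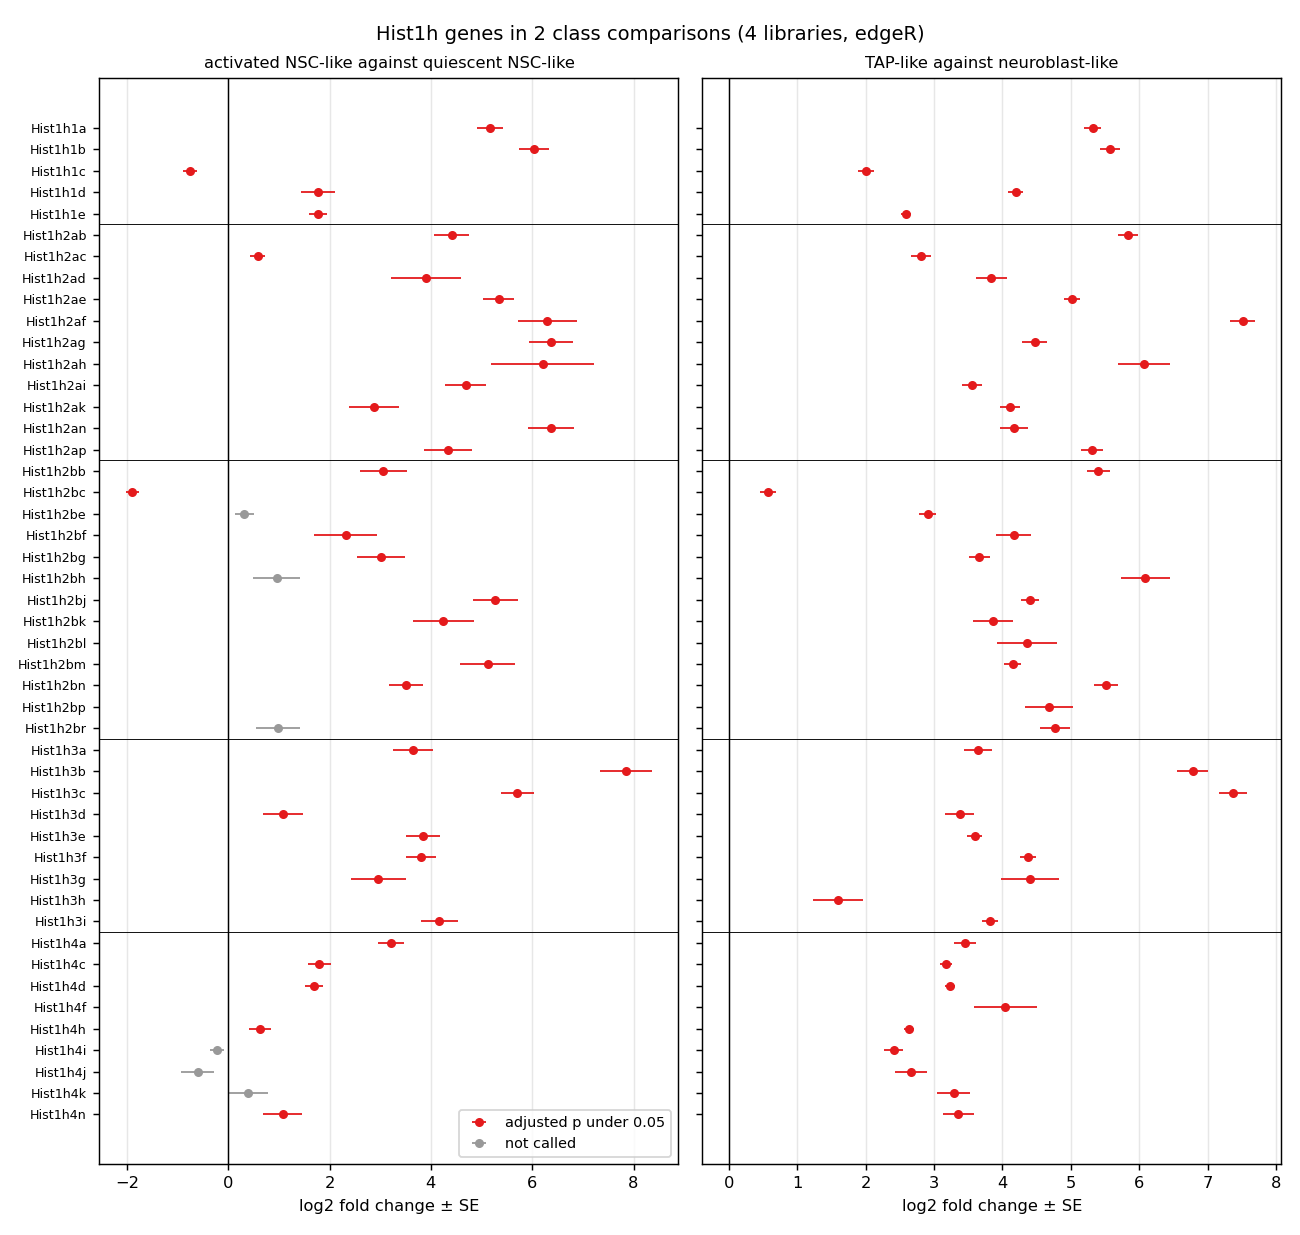
Log2 fold changes of the tested Hist1h genes with standard errors as bars (edgeR, 4 libraries), grouped by family, for activated against quiescent NSC-like cells (left) and TAP-like against neuroblast-like cells (right); red points passed adjusted p under 0.05 and grey points did not. On the left 35 red genes lie right of 0 and only Hist1h2bc (-1.90) and Hist1h1c (-0.76) are red and left of it, while on the right all 47 are red and right of 0.

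The genes of the same processes were taken as lists, and those with most UMIs are named. All 6 Mcm genes and all 30 DNA replication genes found were higher in activated than in quiescent NSC-like cells, with Mcm7 at 4.56 ± 0.13 and Mcm6 at 5.82 ± 0.13 on the log2 scale (edgeR adjusted p = 2.90e-09 and 1.45e-09). The same 6 and 30 genes were higher in TAP-like than in neuroblast-like cells, where Mcm7 had 0.96 ± 0.08 and Mcm6 1.06 ± 0.10 (edgeR adjusted p = 1.93e-08 and 6.40e-08). The median log2 fold change of the Mcm genes was 5.41 in the first comparison and 1.13 in the second. The neuroblast-like side of the second comparison holds the cluster with the highest Mcm sum. All 16 mitosis genes were higher in both comparisons (medians 4.57 and 6.08), 5 of them being TAP-like markers as well. Replication and mitosis genes other than Mcm2 to Mcm7 were open to the clustering, so their differences between clusters are not independent of it.

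Among genes for the transcription and processing of histone mRNA, 8 of 8 tested were higher in activated NSC-like cells and 5 of 8 in TAP-like cells. Npat, the coactivator of histone gene transcription, rose by 0.66 ± 0.13 and 0.58 ± 0.13 (edgeR adjusted p = 9.86e-04 and 0.00122). Cpsf3, the nuclease that cuts pre-mRNA ends, rose by 0.67 ± 0.12 in activated NSC-like cells and had 0.08 ± 0.12 in TAP-like cells (edgeR adjusted p = 6.78e-04 and 0.582). Slbp, which binds the stem-loop printed above and was singled out for that role after its values were seen, rose by 2.18 ± 0.18 and 1.70 ± 0.17 (edgeR adjusted p = 1.92e-06 and 7.75e-08).

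Replication-dependent histone genes outside the Hist1 cluster did not move as a block. In activated against quiescent NSC-like cells 2 of 8 tested were higher and 5 lower. Hist2h2ac and Hist3h2ba rose by 3.22 ± 0.23 and 1.92 ± 0.25 and Hist3h2a fell by 0.97 on the log2 scale (edgeR adjusted p = 6.44e-07, 5.50e-05 and 0.00171). In TAP-like against neuroblast-like cells 6 were higher and 2 lower, with Hist2h2ac at 5.67 ± 0.12, Hist3h2ba at -1.33 ± 0.08 and Hist3h2a at -1.24 ± 0.12 (edgeR adjusted p = 1.70e-17, 8.89e-11 and 9.80e-08). Of 10 replication-independent histone genes, which are transcribed throughout the cell cycle, 9 were higher in activated NSC-like cells, and 8 were higher and 1 lower in TAP-like cells. H3f3b and H3f3a, which both encode the variant H3.3, had 1.67 ± 0.11 and 1.15 ± 0.11 in the first comparison and 0.34 ± 0.06 and -0.21 ± 0.05 in the second (edgeR adjusted p = 3.21e-07, 3.75e-06, 1.73e-04 and 0.00146).

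Age and interferon receptor genotype were compared per mouse in quiescent NSC-like cells of the vSVZ and in neuroblast-like cells, where each of the 8 mice had at least 20 cells with a hashtag. The Hist1h sum ranged from 823 to 991 CPM over mice in quiescent NSC-like cells, where the 2 KO young mice (823 and 840) lay below the other 6. In neuroblast-like cells it ranged from 797 to 1208, with both extremes in the WT old mice. Activated NSC-like and TAP-like cells had fewer than 20 tagged cells in some mice and were not tested for age or genotype. In the 24 tagged TAP-like cells of each WT young mouse the sum was 15733 and 8045, so that 2 mice of 1 group lay further apart than the lowest and the highest TAP-like library.

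In quiescent NSC-like cells 10 members were tested in edgeR quasi-likelihood fits over 9399 genes. Hist1h4d was lower with age in KO mice, at 86.3 and 81.4 CPM in KO young against 57.1 and 40.5 in KO old mice, with a log2 fold change of -0.79 ± 0.17 (edgeR adjusted p = 0.0104). In WT mice it was at 75.0 and 73.2 in young and 79.5 and 61.1 in old mice, and the interaction of age and genotype did not pass (-0.61 ± 0.27, edgeR adjusted p = 0.423). This was the 1 call among 10 members, where 1.67% of all genes were called and 0.638% were higher and 1.03% lower. The call was lost in DESeq2, with a stricter hashtag call and when 1 of 3 mice was left out (the first or the second KO young mouse, or the second KO old mouse).

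No member was called for age in WT mice, for genotype in young or old mice or for the interaction in quiescent NSC-like cells, where 4.27%, 0.692%, 0.0958% and 0.298% of all genes were called by edgeR. At an unadjusted p under 0.05 the counts were 1, 0, 3 and 3 members of 10, where 18.5%, 12%, 7.13% and 10.7% of all 9399 genes passed that threshold. DESeq2 called 0 members in each. Hist1h2bc was at 604 and 518 CPM in the young and 576 and 577 in the old WT mice, and at 486 and 487 in the young and 616 and 569 in the old KO mice. KO young mice lay below all others, and the change with age in KO mice was 0.26 ± 0.09 on the log2 scale (edgeR adjusted p = 0.159).

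In neuroblast-like cells 16 members were tested over 7140 genes. Hist1h1c was higher in KO young than in WT young mice, at 95 and 104 against 37.7 and 47.0 CPM, with 1.23 ± 0.25 on the log2 scale (edgeR adjusted p = 0.00773), while 0.7% of all genes were called and 0.56% were higher. The old mice had 93.8 and 67.6 (WT) and 70.5 and 91.5 (KO), so the WT young mice lay below the other 6. The interaction did not pass (-1.23 ± 0.38, edgeR adjusted p = 0.221), and the call was lost in DESeq2, with a stricter hashtag call and when the first or the second WT young mouse was left out.

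For age in WT, age in KO, genotype in old mice and the interaction, edgeR called no member in neuroblast-like cells, with 2.86%, 0.14%, 0.014% and 0.196% of all genes called. At an unadjusted p under 0.05 the counts were 3, 2, 7 and 5 members of 16, where 16.5%, 7.16%, 6.67% and 9.64% of all 7140 genes passed that threshold. DESeq2 called 0 members in each.

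**Figure D5:**
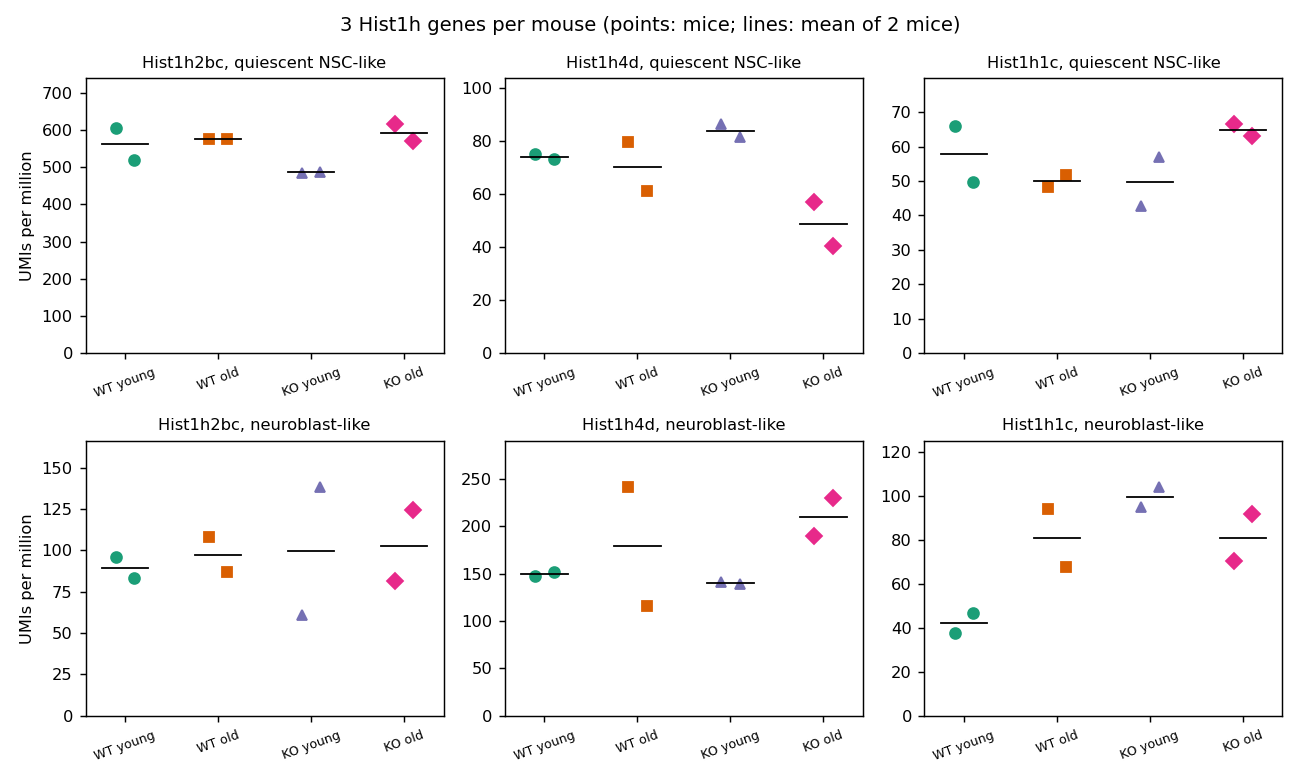
CPM of Hist1h2bc, Hist1h4d and Hist1h1c per mouse in quiescent NSC-like cells of the vSVZ (top) and neuroblast-like cells (bottom), with points for mice and lines for the mean of 2 mice; each axis starts at 0. Hist1h4d is lowest in the KO old mice among quiescent cells (57.1 and 40.5), and Hist1h1c is lowest in the WT young mice among neuroblast-like cells (37.7 and 47.0).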

How the data were processed

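The UMI counts were deposited as 1 matrix of 844265 barcodes from 4 expression libraries, with hashtag counts per barcode. Per the labels and the study's methods, the authors removed index-hopped reads, counted UMIs with kallisto and bustools (a workflow for spliced and unspliced reads) on GRCm38 and counted hashtags with CITE-seq-Count. The submitters' processing notes also name Scanpy 1.6.0. Gene IDs were matched to GENCODE vM21 symbols (32235 of 32287). The members and lists were chosen with earlier results of these data known.

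Cells with at least 100 and at most 6000 genes, 1000 to 20000 UMIs and under 10% mitochondrial UMIs were kept (18390), and doublets predicted by Scrublet in each library were removed. Clustering used scanpy 1.11.5 and leidenalg 0.10.2 (2000 variable genes, 50 components, 15 neighbours, Leiden resolution 1, 28 clusters), without 83 histone and Mcm genes. Clusters were named from fixed markers. Hashtags were called with a multinomial mixture, which gave 5819 cells a mouse and tissue, and only 7.74 to 29.0% of TAP-like and 25.2 to 59.7% of quiescent NSC-like cells by library carried a call.

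UMI counts were summed per class and library, or per class and mouse with at least 20 cells, and tested with edgeR 4.0.16 (quasi-likelihood F test, TMM, filterByExpr, Benjamini-Hochberg adjustment over all genes) in R 4.3.3. Class comparisons had the library as a block, and their p-values measure the spread between 4 libraries of 2 mice each. Mouse comparisons used 1 fit per class over 8 mice. Members with at least 50 UMIs (at most the 25 with most) or called in a comparison are named with values, and from other lists the genes with most UMIs. Alternatives were DESeq2 1.42.0 (size factors and Wald test), no low-count filter, other Leiden resolutions, doublets kept, histone genes kept in the clustering, a stricter hashtag call, no library block, and leaving out libraries or mice. The tests were checked on simulated data. Thinning drew 1000 UMIs per cell. A hashtag sample whose group the labels do not give was left out. Protein sequences were not used here.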

Additional observations from a re-analysis of the deposited data

Results flagged for a closer look

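Hist1h UMIs also appeared in barcodes outside the cells analysed. Barcodes over the maximum of 20000 UMIs, which the cell filter left out, had 9984 Hist1h CPM in the young (145 barcodes) and 9933 in the old WT library (76), and 12156 in the young (446) and 8714 in the old KO library (154). Of these 821 barcodes 382 (46.5%) had at least 1% of their UMIs in Hist1h genes, and their Mcm sum was 1108 CPM. The levels of the cell classes leave these barcodes out. They held 234120 Hist1h UMIs, against 310482 in the cells analysed, and the part left out differed by library. For young WT, old WT, young KO and old KO they held 34039, 21496, 141665 and 36920. The cells analysed held 143387, 23113, 110716 and 33266. Whether these barcodes are single cells or doublets was not tested.

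Near-empty barcodes with at least 5 and under 100 UMIs had 2310 Hist1h CPM in the young and 820 in the old WT library, and 2124 in the young and 818 in the old KO library. The young libraries were above the old ones, as were the whole-library levels of the cells analysed (4039 and 2231 against 1265 and 1307). The part of free RNA in the levels of non-dividing classes was not tested.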

How the results depend on the processing

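The comparison of activated with quiescent NSC-like cells depended on the clustering. It called 15 members at Leiden resolution 2 and 19 with doublets kept against 37, but 37 with DESeq2 size factors, 32 with the DESeq2 Wald test, 42 without a low-count filter, 32 to 39 when a library was left out and 30 without the library block. Over all genes 7131 of 11759 were called at resolution 2 and 7198 of 11584 with doublets kept, against 8532 of 12459. These log2 fold changes turned negative: Hist1h3d (-0.0152 at resolution 2, -0.13 with doublets kept), Hist1h4h (-0.42 and -0.35) and Hist1h4n (-0.34 at resolution 2). TAP-like against neuroblast-like cells gave 45 to 49 calls throughout, 45 of them without the library block. The cause of these shifts was not tested. For age in KO mice in quiescent NSC-like cells the 1 call became 0 with the DESeq2 Wald test and with a hashtag posterior above 0.9, 2 without a low-count filter, and 0 to 1 when a mouse was left out. Age in WT mice gave 1 call without that filter. For genotype in young mice in neuroblast-like cells the 1 call became 0 with the DESeq2 Wald test and the stricter hashtag call, and 0 to 1 when a mouse was left out. The activated NSC-like Hist1h level was 697 CPM at resolution 2, 729 with doublets kept and 852 with histone genes in the clustering, where its quotient over Mcm was 0.827. The TAP-like level was 11294 at resolution 2 (quotient 9.95), 9683 with doublets kept (7.68) and 12471 without Hist1h2ap. The neuroblast-like quotient was 4.92 with doublets kept and 3.86 in thinned cells. Shares of positive cells without thinning were 96.9% (quiescent), 98.2% (activated), 99.2% (TAP-like), 93.4% (neuroblast-like) and 90.9% (microglia-like). Thinned shares were 48.9% and 49.2% in activated and 81.2% and 77.6% in TAP-like cells at resolution 2 and with doublets kept, and 54.3% in neuroblast-like cells without the leading member. Of the other values of these kinds 157 stayed within the bounds set. No paired analysis was possible because hashtag numbers in different groups belong to different mice. Depth limits the members with few UMIs: 10 of 54 could be tested per mouse in quiescent NSC-like and 16 in neuroblast-like cells, and 34 members have under 50% unique 31-base words in their last 300 bases.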
